A study of Homo sapiens with 8 samples.

Results

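CDKN2A, CDKN2B and MTAP lie next to each other in band 9p21 of human chromosome 9, and their transcripts were followed across 2 lung cancer cell lines with and without added EN2. Members were all probe sets (groups of array probes summarised to 1 value) whose array annotation gave 1 of these symbols alone. The 3 genes, of 18244 with such a probe set, were read by 12 of 49495 probe sets, with 3 for CDKN2A, 3 for CDKN2B and 6 for MTAP. A further probe set annotated to both MTAP and CDKN2B-AS1 was left out.

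CDKN2A encodes unrelated proteins from separate first exons. The protein p16INK4a inhibits the cyclin D-dependent kinases CDK4 and CDK6 and so keeps the RB protein active, and p14ARF binds MDM2 and thereby spares p53. CDKN2B encodes p15INK4b, a close relative of p16INK4a with the same kinase targets. MTAP is the first enzyme of the methionine salvage pathway, which recycles methylthioadenosine, a by-product of polyamine synthesis. The locus is among the regions most often deleted in lung and other cancers, MTAP is often lost together with its neighbours, and A549 is known to carry a homozygous deletion there.

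The arrays came from 4 groups of 2. A549 and PC9, established human lung adenocarcinoma lines, had been infected with a retrovirus carrying EN2, a homeobox transcription factor, or with the Neo vector alone, and drug-selected as stable cells. The vector cells therefore carry the retroviral backbone and its resistance gene too. A549 was kept in F-12K and PC9 in DMEM, so line and medium change together, and the labels name no single clone. Values were deposited on the log2 scale after RMA (a standard background correction, normalisation and summary of probe intensities), where a difference of 1 is a doubling. Nothing in the labels says that replicates were separate cultures, so the p-values speak of array-to-array spread alone, and this may be technical.

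The 4 transcription starts that RefSeq lists for these genes (GRCh38.p14) are shown because the locus is read from both strands within a short stretch. MTAP runs on the plus strand, and CDKN2A and CDKN2B on the minus strand. Each sequence runs from 250 bases before the start to 50 bases after it, and capitals mark the GC box letters GGGCGG or their reverse complement CCGCCC, with no overlap with another motif. In order, the windows are MTAP at chr9:21802386-21802685, the start of CDKN2A farther upstream at chr9:21995275-21995574, whose first exon belongs to p14ARF, the start of CDKN2A at chr9:21974808-21975107, whose first exon belongs to p16INK4a, and CDKN2B at chr9:22009256-22009555.
MTAP: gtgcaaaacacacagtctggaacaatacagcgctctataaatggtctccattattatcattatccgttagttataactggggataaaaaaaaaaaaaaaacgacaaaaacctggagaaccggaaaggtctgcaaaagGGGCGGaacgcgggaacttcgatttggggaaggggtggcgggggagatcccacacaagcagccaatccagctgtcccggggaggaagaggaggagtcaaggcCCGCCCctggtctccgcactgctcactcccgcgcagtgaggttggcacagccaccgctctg
CDKN2A upstream start: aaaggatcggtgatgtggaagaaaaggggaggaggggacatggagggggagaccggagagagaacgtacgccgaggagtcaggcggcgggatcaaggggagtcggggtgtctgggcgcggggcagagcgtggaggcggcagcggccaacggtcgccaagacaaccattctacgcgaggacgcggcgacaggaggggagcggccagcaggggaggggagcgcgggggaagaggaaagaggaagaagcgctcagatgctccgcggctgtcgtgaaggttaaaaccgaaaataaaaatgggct
CDKN2A downstream start: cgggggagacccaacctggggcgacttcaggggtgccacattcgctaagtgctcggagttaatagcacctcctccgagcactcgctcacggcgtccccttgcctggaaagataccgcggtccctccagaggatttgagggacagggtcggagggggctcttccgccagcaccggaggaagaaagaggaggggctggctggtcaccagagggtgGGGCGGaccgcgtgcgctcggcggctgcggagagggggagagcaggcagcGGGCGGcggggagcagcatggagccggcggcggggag
CDKN2B: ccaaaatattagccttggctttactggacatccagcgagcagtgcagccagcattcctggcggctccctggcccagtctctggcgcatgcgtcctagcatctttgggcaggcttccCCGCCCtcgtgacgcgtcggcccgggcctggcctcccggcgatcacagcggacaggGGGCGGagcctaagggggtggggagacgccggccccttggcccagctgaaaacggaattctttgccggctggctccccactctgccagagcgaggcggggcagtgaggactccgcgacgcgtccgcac

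The upstream CDKN2A window holds 0 GC boxes, and each of the other windows holds 2. Of 35116 windows of this length, 45.0% hold at least 1 GC box on either strand and 26.7% hold 2 or more. The windows of CDKN2A and CDKN2B are rich in CpG, with 28 and 26 CpG sites at the CDKN2A starts and 25 at CDKN2B, against 15 at MTAP and a median of 14 over all windows. A match describes the letters only. No methylation, binding or copy number was measured in these samples.

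The arrays of a line had close medians, 6.33 to 6.35 in A549 and 6.10 to 6.11 in PC9, and the lines differed most among dim probe sets, with 25th percentiles of 4.70 to 4.71 and 4.27 to 4.31. Background was taken from the 100 ERCC probe sets, which detect spike-in RNA that is not human: their 95th percentile averaged 4.38 in A549 and 3.92 in PC9. The labels do not say whether the lines were normalised together, so a line difference and a processing difference cannot be told apart at the level of this offset. The 18S rRNA control read 11.7 to 12.7 in A549 and 6.05 to 6.10 in PC9, a gap that falls wholly between the lines and cannot be told apart from them in any line difference. EN2 itself read 7.71 and 7.62 in A549 EN2 cells against 6.48 and 6.57 in A549 vector cells by its brightest probe set, a rise of 1.15 (limma, Benjamini-Hochberg adjusted p = 0.00035). Its other probe set was not called in either line, with differences of 0.050 in A549 and 0.16 in PC9 (limma adjusted p of 0.933 and 0.987). In PC9 the brightest probe set read 6.24 and 6.39 against 5.86 and 5.78, a difference of 0.50 that did not pass (limma adjusted p = 0.111). The epithelial markers KRT8 and KRT18 were bright in both lines, at 12.37 and 12.97 in A549 and 13.8 and 14.2 in PC9. The other epithelial markers were lower in A549. KRT19 averaged 9.35 in A549 and 13.57 in PC9, and CDH1 9.13 and 10.79. EPCAM was dim in A549, at 5.65 against 12.01 in PC9. The lung lineage factor NKX2-1 read 6.65 in A549 and 6.51 in PC9, and NAPSA 7.44 and 7.34. SFTPB averaged 5.98 and 6.33, and SFTPC read 7.46 to 7.56 in A549 and 6.73 to 6.93 in PC9. Among 25 measured genes restricted to other tissues, the highest mean was 7.46 in A549 and 6.73 in PC9. NKX2-1 and SFTPB lay below it in both lines and NAPSA in A549, so these readings do not show lineage expression. NAPSA in PC9 and SFTPC in both lines lay above it. Among the epithelial markers only EPCAM lay below it, in A549. The fibroblast markers COL3A1, DCN and LUM and the leukocyte markers PTPRC and LYZ lay at or below the background level in both lines, whereas COL1A1, PDGFRB, CD3E and CD68 lay above it.

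The first comparison set PC9 against A549 and asked which transcripts of the locus each line shows. In the vector cells, 10 of 12 member probe sets were higher in PC9, 1 was lower and 1 was not called. Of all 49293 probe sets tested, 74.2% were called, 26.5% higher and 47.7% lower. All 3 probe sets of CDKN2A and all 3 of CDKN2B were higher in PC9, and so were 4 of 6 for MTAP. The median difference of the 12 was 4.50 on the log2 scale, against -0.21 over all probe sets. It falls between MTAP 11748840_a_at and 11726117_a_at (both 4.50), which are nearly the same on every array and count as 1 measurement. The 12 probe sets read only 3 genes, so neither the median nor the count of 10 rests on independent members. Among all probe sets, 447 were higher in PC9 by more than 3. The counts over all probe sets moved with the scaling: higher and lower shares were 34.5% and 34.0% after quantile normalisation and 36.7% and 33.3% with each array centred on its median. With arrays centred on the ERCC median they were 33.5% and 36.8%. The calls of the 10 higher and the 1 lower member probe set kept their direction under these 3 scalings. They moved the median over all probe sets from -0.21 to 0.0033, 0.022 and -0.043, so line differences of that size depend on the scale. In bulk RNA, fewer cells with a transcript and less of it in each cell cannot be told apart.

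CDKN2A showed the largest difference of the locus. Its brightest probe set, 11718293_a_at, read 4.56 and 4.53 in the A549 vector cells and 4.54 and 4.68 in the A549 EN2 cells. In PC9 it read 12.64 and 12.62 with the vector and 12.68 and 12.58 with EN2. Every PC9 array was thus far above every A549 array, and within a line the 4 arrays lay close together. The vector difference was 8.08 ± 0.081 (SE, n = 2 arrays a group), with an adjusted p of 3.52e-12 in limma. The A549 readings lay above the ERCC level but are themselves taken as a floor further on. PC9 was thus at least 271-fold higher, counted from those readings, and the other CDKN2A folds are bounds of the same kind. Every fold given as at least some value is a point estimate that leaves out the error of the fit. For this probe set the 95% interval of the log2 difference was 7.90 to 8.26. In PC9 this probe set ranked at or above 99.2% of all probe sets.

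The other probe sets of CDKN2A gave the same direction with a smaller span. Probe set 11753744_a_at read 5.09 to 5.17 in A549 and 9.96 to 10.07 in PC9, a vector difference of 4.95 (at least 30.9-fold). Probe set 11753745_x_at, whose suffix marks probes that can match other sequences, read 4.70 to 4.89 in A549 and 9.47 to 9.57 in PC9, a vector difference of 4.77 (at least 27.4-fold). These follow each other closely, with 11753744_a_at brighter by 0.28 to 0.52 on every array. The annotation does not say which CDKN2A transcript a probe set reads, so p16INK4a and p14ARF cannot be told apart here.

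CDKN2B, the p15INK4b gene, was near the bottom of the A549 arrays. Probe set 11726508_a_at read 3.13 and 3.08 in A549 vector cells, 3.19 and 3.16 in A549 EN2 cells, 8.82 and 8.73 in PC9 vector cells and 8.97 and 8.57 in PC9 EN2 cells. The lines did not overlap, where 87.5% of all probe sets did not between the vector cells and 87.2% between the EN2 cells. The PC9 EN2 arrays lay farther from each other than the A549 arrays did. Its vector difference was 5.66 ± 0.13 (SE, n = 2 a group; limma adjusted p = 2.4e-10). Because the A549 readings lie below background, the fold is a bound: PC9 was at least 21.3-fold higher, counted from the ERCC 95th percentile of each A549 array.

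Probe set 11736163_a_at of CDKN2B read 2.77 to 3.15 in A549 and 8.29 to 8.73 in PC9, at least 18.3-fold higher in PC9 vector cells. The third probe set of the gene, 11726507_a_at, hardly separated the lines by comparison. It read 4.80 to 5.08 in A549 and 5.51 to 5.64 in PC9, with a vector difference of 0.75 ± 0.095 (SE; limma adjusted p = 5.04e-05). Probe sets annotated to the same gene therefore differed by over 4 log2 units in what they showed of the line difference.

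**Figure D1:**
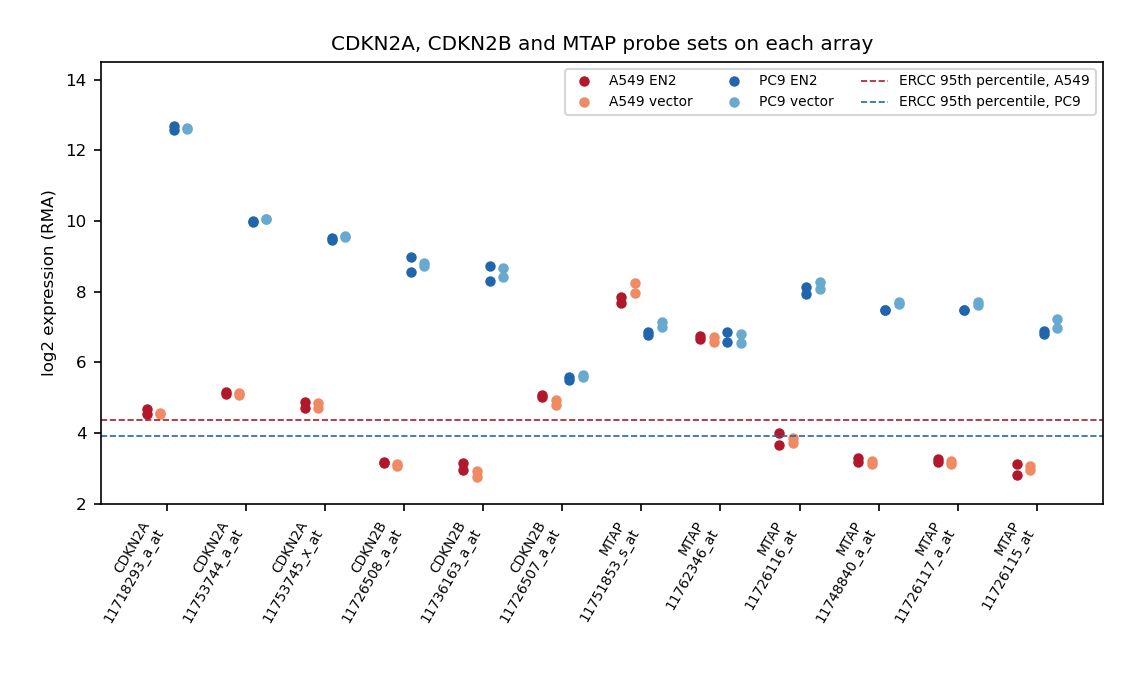
Log2 expression (RMA) of the 12 probe sets of CDKN2A, CDKN2B and MTAP on each of 8 arrays, with 2 points a group and dashed lines at the mean ERCC 95th percentile of each line (4.38 in A549, 3.92 in PC9). PC9 points stand well above A549 points for 9 probe sets and slightly above for CDKN2B 11726507_a_at, while MTAP 11751853_s_at is higher in A549 and MTAP 11762346_at overlaps.

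MTAP split into 2 kinds of probe set. Probe set 11726116_at read 3.85 and 3.71 in A549 vector cells, 3.67 and 3.99 in A549 EN2 cells, 8.27 and 8.09 in PC9 vector cells and 7.93 and 8.12 in PC9 EN2 cells. All A549 arrays lay below the background level and all PC9 arrays above it. PC9 vector cells were at least 14.1-fold higher, with a difference of 4.39 ± 0.13 (SE, n = 2 a group; limma adjusted p = 1.66e-09). Probe set 11748840_a_at read 3.13 to 3.28 in A549 and 7.48 to 7.70 in PC9, at least 9.92-fold higher in the vector cells. Probe set 11726117_a_at differed from it by at most 0.0199 on any array, so the pair is 1 measurement rather than 2. Probe set 11726115_at read 2.81 to 3.14 in A549 and 6.79 to 7.24 in PC9, at least 6.71-fold higher in the vector cells.

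The remaining MTAP probe sets did not follow that pattern. Probe set 11751853_s_at, the brightest of the gene over all arrays, read 7.98 and 8.24 in A549 vector cells and 7.69 and 7.85 in A549 EN2 cells. In PC9 it read 7.16 and 7.0 with the vector and 6.87 and 6.78 with EN2. It was thus higher in A549, by 1.03 ± 0.11 in the vector cells (SE; 2.04-fold; limma adjusted p = 1.68e-05). Its suffix marks probes shared with transcripts of other genes. Probe set 11762346_at read 6.57 to 6.75 in A549 and 6.55 to 6.85 in PC9, and its vector difference of 0.031 was not called (limma adjusted p = 0.828). A gene level taken from the brightest probe set alone puts MTAP higher in A549, while the mean over its 6 probe sets puts it higher in PC9 by 2.75. What sequence these 2 probe sets read in A549 was not tested.

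The line difference was then read in the EN2 cells. Their means come from the other 4 arrays, but the fit shares 1 estimate of spread over all 8. Again 10 of 12 probe sets were higher in PC9, 1 was lower and 1 was not called, where 74.2% of all probe sets were called, 26.9% higher and 47.3% lower. CDKN2A 11718293_a_at differed by 8.02 (at least 260-fold; limma adjusted p = 3.39e-12). CDKN2B 11726508_a_at differed by 5.60, at least 20.8-fold. MTAP 11726116_at differed by 4.20, at least 12.4-fold, and MTAP 11751853_s_at by -0.95 (limma adjusted p = 2.96e-05). The median over the 12 was 4.25, against -0.21 over all probe sets, and again falls between the MTAP pair that is 1 measurement.

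**Figure D2:**
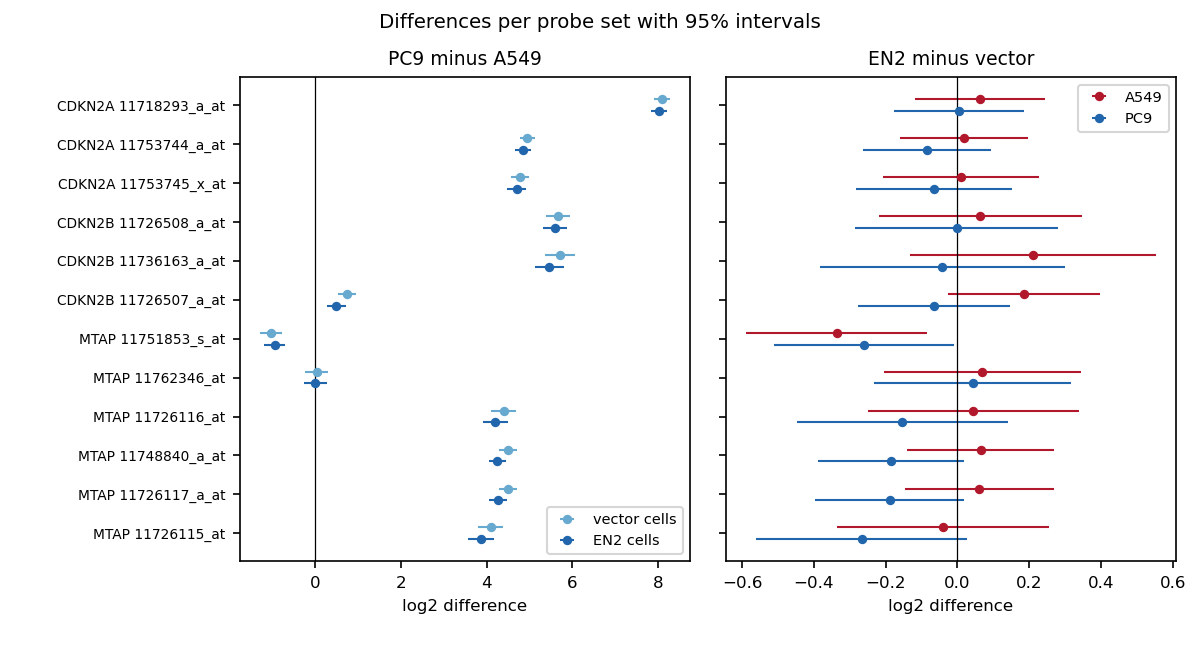
Log2 differences with 95% intervals from limma for the 12 member probe sets, PC9 minus A549 on the left (vector cells and EN2 cells) and EN2 minus vector on the right (A549 and PC9), on separate horizontal scales. The line differences reach 8.08, while all EN2 changes lie between -0.34 and 0.21.

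The comparison named by the design is EN2 against vector within each line, and none of the 12 member probe sets was called in it. In A549, 10 of the 12 serve further on as a floor for absent transcripts. Taken as absent, these transcripts could show no EN2 change in A549, so that outcome was set beforehand. For them the difference between the lines in the EN2 change rests on PC9 alone. In A549, limma called 0 of 12 (1.98% of all probe sets were called, 1.04% higher and 0.937% lower), with 1 at an unadjusted p below 0.05. In PC9 it called 0 of 12 (0.284% of all, 0.0832% higher and 0.201% lower), again with 1 at an unadjusted p below 0.05. The changes ran from -0.34 to 0.21 in A549 with adjusted p from 0.171 to 0.983, and from -0.27 to 0.042 in PC9 with adjusted p from 0.773 to 1.0. The test of the difference between the lines in the EN2 change called 0 of 12 (0.54% of all, 0.229% where the change in PC9 minus that in A549 was above 0 and 0.31% where it was below) and found 0 at an unadjusted p below 0.05.

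The intervals show what size of change these arrays leave possible. In PC9, where CDKN2A is bright, the EN2 change of 11718293_a_at was 0.0039 with a 95% interval of -0.18 to 0.18. That of CDKN2B 11726508_a_at was -0.0019 (-0.29 to 0.28). MTAP 11726116_at changed by -0.15 (-0.45 to 0.14) and 11726115_at by -0.27 (-0.56 to 0.028). None of these intervals reaches a 2-fold change, which is 1 on this scale. EN2 itself was not called in PC9 (0.50 by its brightest probe set, limma adjusted p = 0.111). The intervals therefore compare the PC9 groups and do not bound a response to a called rise of EN2. The probe set with an unadjusted p below 0.05 was MTAP 11751853_s_at in both lines, at -0.34 (-0.59 to -0.086) in A549 and -0.26 (-0.51 to -0.0084) in PC9. EN2 and vector arrays did not overlap for it in either line, and its adjusted p was 0.171 and 0.773 in limma. With the 18S signal as a covariate its A549 change turned to 0.010, but in A549 that signal was lower on both EN2 arrays than on both vector arrays. Of the 12, 4 did not overlap in A549 and 6 in PC9, where 46.2% and 32.8% of all probe sets did not.

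The A549 readings of the locus were used as a floor, that is, as the level at which a transcript taken to be absent still reads. MTAP 11751853_s_at and 11762346_at were left out of it after their values were seen. The other 10 probe sets had A549 means of 2.95 to 5.12 with a median of 3.51, and the highest reading on any A549 array was 5.17. The spread over the 4 A549 arrays was small, with SDs of 0.034 to 0.16. The floor differed by probe set more than by array. The 2 low probe sets of CDKN2B were at or above 2.55% and 0.73% of all probe sets in A549, whereas those of CDKN2A were at or above 23.0%, 30.9% and 26.0%, and CDKN2B 11726507_a_at was at or above 28.5%.

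Of the 12, 6 lay at or below the ERCC 95th percentile of A549. The 3 probe sets of CDKN2A and CDKN2B 11726507_a_at lay above it on all 4 A549 arrays. Spike-in probe sets are only 1 guide to background. The 360 olfactory receptor probe sets, whose genes are mostly silent outside the nose, had a median of 4.42 and a 95th percentile of 6.06 in A549. That percentile is the cut that parts the 10 probe sets from the MTAP probe sets left out. A list of 25 measured genes restricted to other tissues had a median of 4.96 and a highest mean of 7.46 in A549. The array's background probes, grouped by their G and C letters, read from 2.66 at 3 letters to 11.4 at 25 letters in A549, with 4.44 at 16 letters and 5.07 at 17. How many G and C letters the CDKN2A probes hold was not tested.

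**Figure D3:**
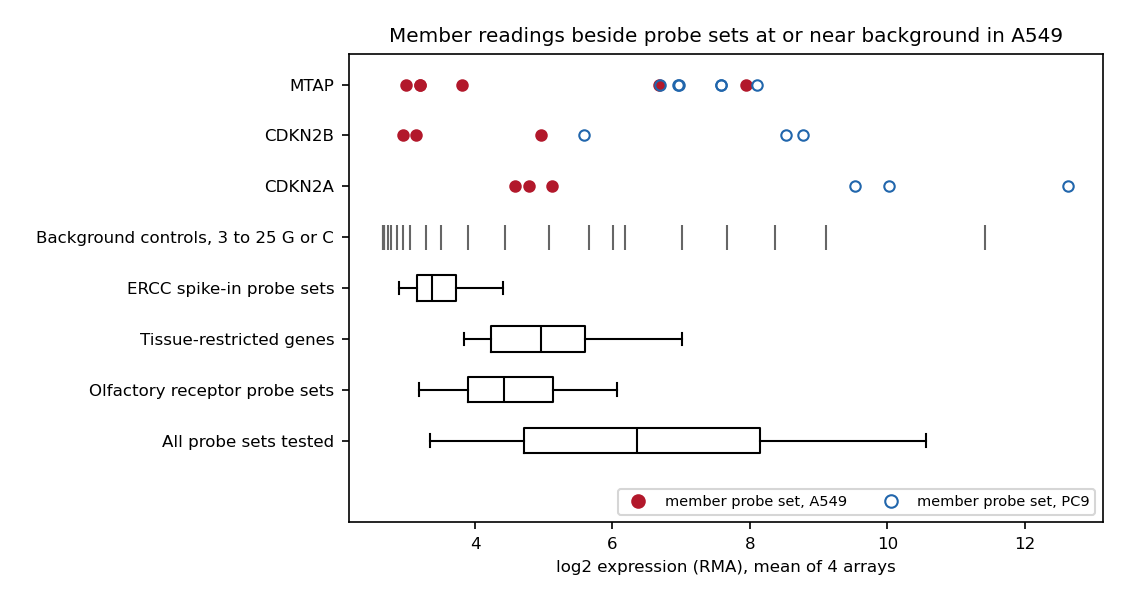
Mean log2 expression (RMA) over the 4 A549 arrays for all probe sets tested, olfactory receptor probe sets, tissue-restricted genes and ERCC spike-in probe sets (boxes from the 25th to the 75th percentile, whiskers at the 5th and 95th), with ticks for background controls of 3 to 25 G or C letters. Points are the means of each member probe set in A549 (filled) and PC9 (open): 10 of 12 filled points lie at 5.12 or lower, and the others are MTAP at 6.68 and 7.94.

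Applied to the EN2 comparison, the floor gives the number of calls at probe sets as dim as its own. In A549, 9428 probe sets (19.1%) read at or below the ERCC 95th percentile in both EN2 and vector cells, and 17 of the 977 called probe sets (1.74%) were among them. At the highest A549 reading of the floor, 5.17, these were 15153 probe sets (30.7%) and 63 calls (6.45%), which leaves 914 calls above it. These 914 are not thereby above background. In A549 the olfactory receptor probe sets reached 6.06 at their 95th percentile and the tissue-restricted genes 7.46. The floor also holds only member probe sets kept for reading low. In PC9, 0 of 140 called probe sets lay at or below the ERCC level and 7 (5.0%) at or below 5.17. That level comes from A549 arrays and is not a floor measured in PC9, where the ERCC level was 3.92. The EN2 changes of the 10 floor probe sets themselves were 0.011 to 0.21 in size in A549, with a median of 0.062 against 0.095 over all probe sets.

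The neighbours along 9p were read to see how far the low A549 readings extend. Of 42 listed genes 37 were measured, and 22 lay above the ERCC 95th percentile in each line. Between vector cells of the lines, 5 were higher in PC9 and 22 lower, where 29.6% and 45.7% of genes were called in these directions by their brightest probe set. The 5 higher were HACD4 (2.55), TUSC1 (0.42) and RPS6 (0.095), and CDKN2B-AS1 and IFNA4, which lay below background in A549 vector cells and have no fold. Among the lower ones were PLIN2, a lipid droplet protein gene (-4.16), RRAGA, a GTPase of nutrient sensing (-2.27), and DENND4C (-1.47). FOCAD, a focal adhesion protein gene on the MTAP side, read 8.58 to 8.63 in A549 and 7.72 to 7.91 in PC9. KLHL9, an adaptor of a ubiquitin ligase that lies nearer MTAP, read 8.57 to 8.61 in A549 and 7.41 to 7.57 in PC9. On the CDKN2B side, DMRTA1, a DM-domain transcription factor gene, read 6.65 and 6.50 in A549 EN2 cells, 6.33 and 6.11 in A549 vector cells and 4.73 to 4.92 in PC9. FOCAD, KLHL9 and DMRTA1 thus lay above the ERCC level in A549 and were lower in PC9 (limma differences of -0.87, -1.09 and -1.46). DMRTA1 was close to the 95th percentile of olfactory receptor probe sets in A549, 6.06. It was also below the highest mean of the tissue-restricted genes there, 7.46, so its reading does not show expression in A549. HACD4, on the MTAP side, and TUSC1, beyond DMRTA1, also lay above the ERCC level in A549 but were higher in PC9.

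IFNB1, the interferon beta gene on the MTAP side, showed the largest line difference among these neighbours and ran the other way from the members. It read 9.81 and 9.27 in A549 EN2 cells, 9.12 and 8.51 in A549 vector cells and 3.34 to 3.65 in PC9, at least 28.8-fold higher in A549 vector cells (limma adjusted p = 1.38e-08), a bound because all PC9 vector readings lie below background. Its EN2 change in A549 was not called (0.73, limma adjusted p = 0.13). The 13 interferon alpha, epsilon and omega genes had means of 2.98 to 5.43 in A549 and 2.82 to 4.87 in PC9. Among them IFNA14 read 5.36 to 5.62 in A549 and 4.80 to 4.92 in PC9, and IFNE read 4.48 to 5.10 and 4.57 to 5.19. IFNA4 averaged 4.07 in A549 and 4.13 in PC9. These genes are close copies of each other, so shared probes are possible. CDKN2B-AS1, the antisense RNA of the locus, read 3.54 to 3.84 in A549 and 3.81 to 4.01 in PC9, near background in both, although PC9 shows the genes on either side of it.

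Of the 37 neighbours, 2 were called for EN2 in A549, 1 higher and 1 lower, and 0 in PC9. By the brightest probe set, 1.29% of genes were higher and 0.981% lower in A549, and in PC9 0.126% were higher and 0.203% lower. HACD4, an enzyme of very long-chain fatty acid synthesis, read 6.38 and 6.30 in A549 EN2 cells against 5.49 and 5.40 with the vector, a rise of 0.89 ± 0.087 (SE, n = 2 a group; limma adjusted p = 0.00085). In PC9 it read 8.20 and 8.27 against 7.99 and 8.01, a difference of 0.23 (limma adjusted p = 0.661). MLLT3, a component of a transcription elongation complex, read 8.11 and 8.02 in A549 EN2 cells against 8.85 and 8.61, a fall of 0.66 ± 0.10 (SE; limma adjusted p = 0.0105), and 7.95 to 8.11 in PC9. The 18S rRNA control also differed between the A549 groups, at 11.7 and 12.1 with EN2 and 12.4 and 12.7 with the vector. It thus runs with EN2 in A549, and a fit with both can hardly tell them apart. A call lost in such a fit does not show that a change depends on the 18S signal. With that signal as a covariate neither gene passed (HACD4 0.74, MLLT3 -0.90), nor did EN2 itself in A549 (1.11), and MLLT3 also missed with only the A549 arrays and without the first A549 EN2 array (-0.70).

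**Figure D4:**
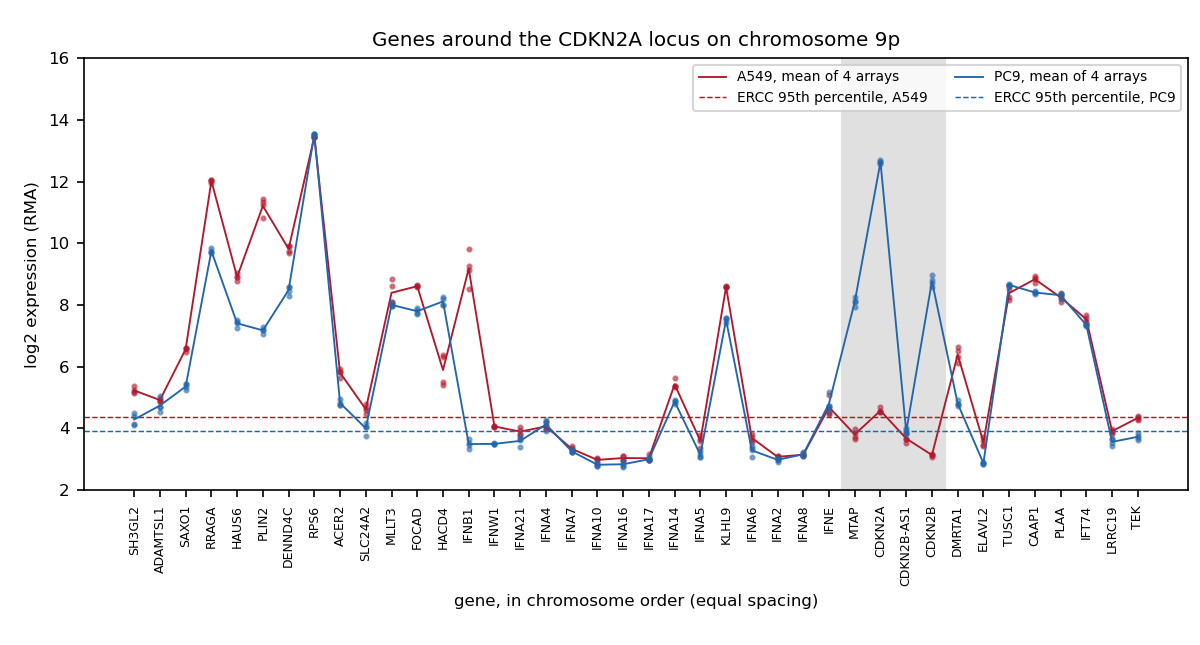
Log2 expression (RMA) of 40 genes in chromosome order at equal spacing, with a point for each array, a line through the mean of 4 arrays for A549 and PC9, and dashed lines at the ERCC 95th percentile of each line. The 3 members are shaded, with MTAP by 11726116_at, chosen after its values were seen. They and CDKN2B-AS1 have means below 4.58 in A549, while KLHL9 at 8.59 and DMRTA1 at 6.40 stand above the ERCC level on either side. DMRTA1 lies below the highest mean of the tissue-restricted genes in A549, 7.46.

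The genes through which the members act were counted in 8 lists with 73 measured genes. EN2 against vector called 2 in A549, 1 higher and 1 lower, with a median change of -0.038, and 0 in PC9, with a median of -0.015. By the brightest probe set of every gene, 2.27% were called in A549 and 0.329% in PC9. The count of 2 in A549 became 5 without the second A549 EN2 array, and 1 without the first A549 EN2, the second A549 vector or either PC9 EN2 array. It was 1 with a constant prior variance or only the A549 arrays, and 0 with the 18S signal as a covariate. With a replicate block the counts were larger in both lines, as given at the end of the report. The counts by list that follow are from the main fit. The kinases CDK4 and CDK6, targets of p16INK4a and p15INK4b, changed by 0.11 and 0.25 in A549 and were not called (limma adjusted p of 0.446 and 0.397), nor was any of the 8 genes of the cyclin D, CDK4/6 and RB list. The 21 measured genes of the E2F list, which RB holds in check, gave 0 calls in either line, with median changes of -0.17 and -0.059. The list of CDK inhibitors outside the locus gave 0 of 4, methionine salvage 0 of 4, polyamine metabolism 0 of 10, and the methionine cycle with the PRMT5 complex 0 of 10 in both lines.

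MDM2, the ubiquitin ligase that p14ARF binds, was the lower gene. It read 8.41 and 8.51 in A549 EN2 cells against 9.24 and 9.35 with the vector, a fall of 0.84 ± 0.093 (SE, n = 2 a group; limma adjusted p = 0.00188), and all 11 of its probe sets had that sign. In PC9 its change was 0.082 (limma adjusted p = 1.0), and the difference between the lines was 0.92 (limma adjusted p = 0.017). That difference was called for 0.608% of genes by their brightest probe set, 0.263% upward and 0.345% downward. With the 18S signal as a covariate the A549 change was -0.64 and was not called (limma adjusted p = 0.567), and the difference between the lines of 0.72 was not called either. That signal runs with EN2 in A549, so these lost calls do not show dependence on it. The difference between the lines also missed the threshold when any of 6 single arrays was left out, with values of 0.83 to 1.0. EZH2, the methyltransferase of Polycomb complexes known to silence this locus, was the higher gene, at 8.52 and 8.55 against 8.11 and 8.16 in A549, a rise of 0.40 (limma adjusted p = 0.0254). It was not called with a constant prior variance (adjusted p = 0.0508), with the mean of its probe sets (0.25), with only the A549 arrays, with the 18S signal, or without any of 6 single arrays. Among the epithelial markers, CDH1, EPCAM and KRT19 fell in the A549 EN2 cells by 1.11, 0.77 and 0.70 (limma adjusted p of 0.000372, 0.000929 and 0.00208), and the part of such a shift in these results was not tested. EPCAM was dim in A549, at 5.19 and 5.34 with EN2 and 6.05 and 6.03 with the vector. Its EN2 readings lie near the highest floor reading of 5.17.

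**Figure D5:**
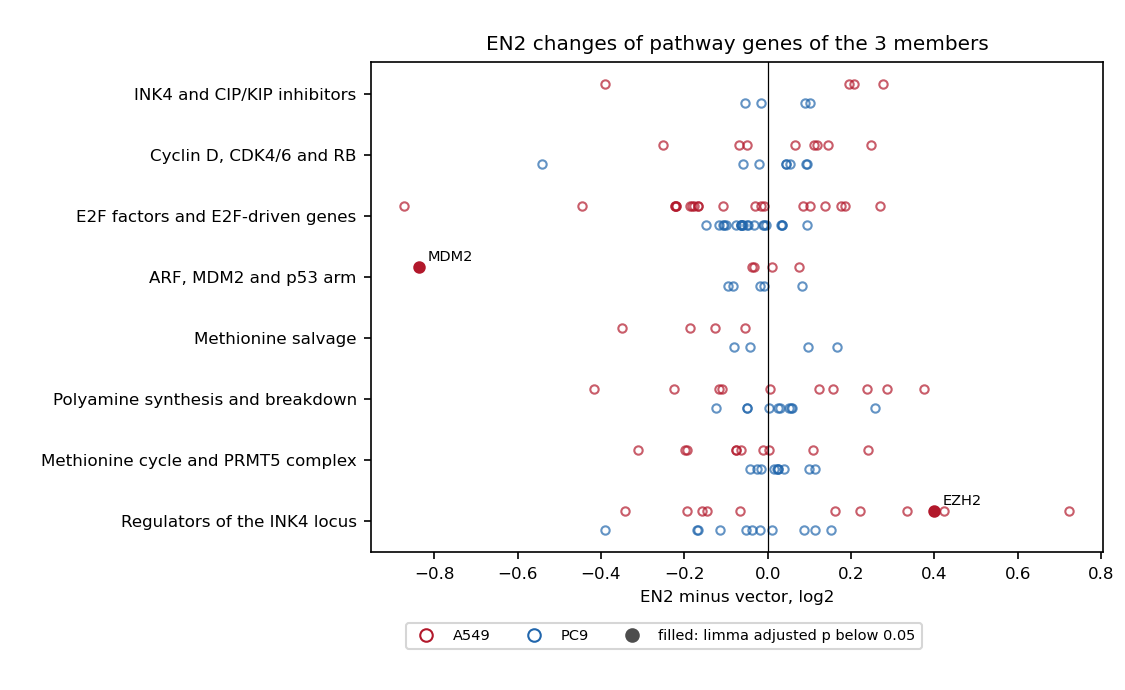
EN2 minus vector in log2 units for each measured gene of 8 lists around the members, in A549 (red) and PC9 (blue), with filled points for a limma adjusted p below 0.05. The filled points are MDM2 at -0.84 and EZH2 at 0.40, both in A549.

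Between the lines, most genes of these lists differed. In the vector cells 34 of 73 were higher in PC9 and 26 lower, where 29.6% and 45.7% of genes were called in these directions by their brightest probe set. In the EN2 cells 38 were higher and 26 lower, against 29.7% and 45.4% of all genes. In the E2F list 16 of 21 were higher and 4 lower, with a median of 0.90. CCNE2, a cyclin of S phase entry, read 4.94 in A549 and 7.52 in PC9 vector cells, and its partner kinase CDK2 read 7.43 and 9.25. The replicative helicase subunit MCM2 read 7.52 and 9.54, and TFDP1, the partner of E2F proteins on DNA, 9.57 and 11.2. The 4 lower were E2F5 (-0.82), CCNE1 (-0.65), CDC6 (-0.71) and E2F2 (-0.36). Among the other CDK inhibitors, CDKN2D, the p19INK4d gene, was higher in PC9 by 1.91, CDKN1C by 1.19 and CDKN1B by 0.19, and CDKN1A, the p21 gene and a p53 target, was lower by 2.96. In the p14ARF list MDM2 and its relative MDM4 were lower in PC9 by 1.85 and 0.82 and USP7 by 0.18, and NPM1, a nucleolar partner of p14ARF, was higher by 0.41. RBL2, a relative of RB, was higher by 1.18 and the cyclin gene CCND2, below background in PC9, at least 1.89-fold lower. CDK4 differed by 0.34 (limma adjusted p = 0.000726), and CDK6, CCND1 and RB1 were not called (differences of 0.11, 0.11 and -0.14).

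On the MTAP side, 2 of 10 polyamine genes were higher in PC9 and 7 lower in the vector cells. SMOX, spermine oxidase, was lower by 3.76, and SAT1, which acetylates spermidine and spermine for breakdown, was lower by 1.99. SRM, spermidine synthase, was lower by 1.33 and ODC1, the first enzyme of the pathway, by 0.72, while the 2 higher genes were OAZ1 (0.53) and SMS (0.34). MRI1, the enzyme that follows MTAP in the salvage pathway, was higher by 1.39, ENOPH1 was lower by 0.29, and APIP and ADI1 were not called. PRMT5, the arginine methyltransferase inhibited by the substrate of MTAP, read 10.8 in A549 and 10.4 in PC9 vector cells, a difference of -0.43 (limma adjusted p = 0.000209). In its list, which also holds the methionine cycle, 4 genes were higher in PC9 and 4 lower. COPRS, a cofactor of PRMT5, was lower by 1.38, MAT2A, which makes S-adenosylmethionine, by 0.50 and AHCY by 0.27. MTR, methionine synthase, was higher by 0.55, the PRMT5 partners RIOK1 and CLNS1A by 0.52 and 0.31, and MAT2B by 0.31. Of the locus regulators, EZH2 was higher in PC9 by 2.49 and CBX7 and EED, both Polycomb subunits, by 2.06 and 0.86. RING1 was higher by 0.43. SUZ12, a partner of EZH2, was lower by 0.95, BMI1 by 0.35, and ETS1 and ETS2, activators of CDKN2A, were lower by 1.51 to 1.52. Over all genes, 75.2% were called between the vector cells by their brightest probe set.

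The genes nearest to each member in level over the 8 arrays were taken by the smallest Euclidean distance between log2 readings, a description over 8 arrays of 2 lines. For CDKN2A they were PSCA, a cell surface protein gene (distance 2.25), the epithelial adhesion gene EPCAM (2.62), the tight junction gene CLDN7 (2.71), S100A14 (3.22) and ARHGDIB (3.24). PSCA averaged 5.10 in A549 and 11.7 in PC9. For CDKN2B they were the dynein gene DNAH2 (0.50), the receptor gene ADGRF1 (0.69), FSTL5 (1.08), TRIM2 (1.16) and CD200 (1.24). For MTAP by its brightest probe set they were LETM2 (0.34), SLC22A4 (0.40), MMP24 (0.42), RHBDF2 (0.47) and ZNF517 (0.50), all brighter in A549. By 11726116_at, a choice made after values were seen, they were ITGB6 (0.41), KCNS3 (0.63), HOOK1 (0.75), GDA (0.88) and TSPAN12 (0.89), all brighter in PC9. The genes nearest to MTAP therefore depend on its probe set.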

How the data were processed

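Total RNA of A549 and PC9 cells was hybridised to single-colour arrays, 8 in 4 groups of 2 taken from the sample titles. The authors deposited log2 values, and the submitters' processing notes name RMA without a version. Its settings are not given in the sources used. Probe sets were named from the platform annotation: 45278 carried 1 symbol, 1333 several and 2682 none, and 202 array controls were left out of the tests.

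Group means were fitted jointly to all 49293 remaining probe sets on the 8 arrays with limma 3.58.1 (lmFit, eBayes with an intensity trend) in R 4.3.3. Tests were two-sided, with Benjamini-Hochberg adjustment over all probe sets of a comparison and a threshold of 0.05. With 2 arrays a side, the exact permutation p cannot go below 0.333, so limma's p-values are given. Intervals are 95% intervals from the same fit. The number of arrays limits the precision. The script was tested on simulated data.

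In gene lists a gene was represented by its brightest probe set with 1 symbol, which gave 18244 genes. The members and lists were chosen with earlier results of these data known. Named were all member probe sets, EN2, genes of the pathway and 9p lists called for EN2 or between vector cells (up to 4 by p in each direction), the 9p neighbours from MLLT3 to ELAVL2 above background in a line, and the 5 nearest genes of each member; other genes named, such as CDK4, CDK6 and PRMT5, were chosen for their roles after their values were seen. Where all A549 arrays of a group lay below background, a fold is the mean of PC9 minus, per A549 array, the higher of the ERCC 95th percentile and the reading. Sequences and gene order came from RefSeq (GRCh38.p14), and 3 of 3 members matched. Alternatives changed the scale, prior variance, filter, probe set per gene, arrays in the fit, a replicate block and an 18S covariate.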

Additional observations from a re-analysis of the deposited data

Results flagged for a closer look

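The EN2 change of MDM2 differed between the lines by a test of the difference itself: the change in PC9 minus that in A549 was 0.92 on the log2 scale (limma adjusted p = 0.017). MDM2 read 8.41 and 8.51 in A549 EN2 cells and 9.24 and 9.35 in A549 vector cells, and its change in PC9 was 0.082. The difference was not called with the 18S signal as a covariate, but that signal runs with EN2 in A549 and can hardly be parted from it. Leaving out 1 array at a time gave differences of 0.83 to 1.0, and for several arrays the call was lost, as given above. The call is therefore fragile.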

How the results depend on the processing

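Of 827 recomputed values, 764 kept their direction and their side of the threshold, 28 turned direction, 23 lost the call and 12 counts moved. For the line differences of 9 member probe sets, in vector cells and for CDKN2A, CDKN2B and MTAP 11726116_at also in EN2 cells, 200 of 200 alternatives kept the call. These 9 were chosen by their values, without CDKN2B 11726507_a_at and the 2 MTAP probe sets high in A549. Some alternatives, such as leaving out an EN2 array, cannot move a vector difference, so the count is no independent support. MTAP by its brightest probe set turned to 2.75 in vector cells and 2.60 in EN2 cells with the mean of its probe sets, and to 4.39 and 4.20 with 11726116_at, an alternative chosen after seeing the data. No EN2 change of a member was called under any alternative run, so turns among them are turns of values near 0. With the 18S covariate, the EN2 change in A549 was -0.011 for CDKN2B and 0.010 for MTAP, and the difference between lines was 0.0068 and -0.26. With 11726116_at, MTAP gave 0.044 in A549 and -0.20 for the difference between lines, and with the mean of its probe sets -0.15 for the latter. In PC9, CDKN2A turned to -0.0099 after quantile normalisation and -0.049 with the mean of its probe sets, and CDKN2B to 0.0030 with median centring and 0.018 with ERCC centring.

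Leaving out 1 array at a time gave EN2 changes in A549 of -0.0092 to 0.14 for CDKN2A and -0.12 to 0.20 for MTAP 11726116_at. In PC9 they ran from -0.045 to 0.053 for CDKN2A and from -0.20 to 0.20 for CDKN2B. The difference between lines ran from -0.13 to 0.013 for CDKN2A, from -0.27 to 0.13 for CDKN2B and from -0.053 to 0.21 for MTAP. The line difference of MTAP 11762346_at ran from -0.099 to 0.16. The 2 pathway genes called in A549 became 1 with a constant prior or only the groups compared, 0 with the 18S covariate and 1 to 5 with 1 array left out, where a group left with 1 array was assumed to vary like the others. The 0 called in PC9 became 1 with the 18S covariate.

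No label pairs the samples by replicate number, and the main fit has no term for it. Deviations of same-numbered arrays correlated at 0.34 in A549 and 0.075 in PC9. Whether same-numbered arrays were handled together is not stated. With the replicate block, 7 pathway genes were called in A549 and 2 in PC9. With the 95th percentile of olfactory receptor probe sets as background, 10 rather than 6 member probe sets lay below it in A549. A fit of only the groups compared gives no value for the difference between lines, and fits with 1 value a gene give none for the other member probe sets. Spike-in readings bound what dim probe sets can show, and 2 arrays a group limit small changes.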
